A study of Mus musculus with 6 samples.

Results

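The Ifit and Oas genes encode antiviral effector proteins that interferon induces. Members were matched by symbol: Ifit1, Ifit2, Ifit3, Ifit3b, Oas1a, Oas2, Oas3, Oasl1 and Oasl2, 9 of the 54446 genes listed. Each matched exactly 1 Ensembl identifier. The set was chosen with earlier results of these data known. The study compared RT-MPs, stem-like Lewis cells exposed for 48 h to an agent whose name the labels do not expand (3 libraries), with Control, the same stem-like cells left untreated and collected at 48 h (3 libraries). Lewis cells are a mouse lung carcinoma line, labelled WT and grown in DMEM with 2% fetal bovine serum and antibiotics in both groups. The labels do not say how the stem-like state was obtained, nor whether the 3 replicates of a group were grown separately. The p-values therefore reflect library-to-library spread alone, which may be technical.

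Type I interferon binds its receptor, Ifnar1 with Ifnar2, and the kinases Jak1 and Tyk2 then activate transcription factors. Among these, Stat2 acts with Irf9 at the interferon-stimulated response element in promoters of target genes. Ifit proteins bind viral RNA by its end, such as a cap without ribose methylation, and limit its translation. Oas enzymes bind double-stranded RNA and make short adenosine oligomers, a signal that leads to RNA decay. Tumour cells can express such genes without a virus, when interferon or their own nucleic acids stimulate them.

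Each library was deposited as FPKM, fragments scaled by gene length and sequencing depth, so that levels of different genes can be compared. Steps between low values implied totals of 16950500 to 21876920 reads per library. The members rested on 26 to 3397 reads per library, with Ifit3b the thinnest at 26 to 64 reads in RT-MPs and 107 to 143 in Control. RT-MPs replicate 3 stood apart: its FPKM summed to 585752, against 296966 to 303798 in the other 5 libraries. Pearson's r of log2(FPKM + 1) over genes was 0.959 to 0.969 for pairs with it and 0.984 to 0.993 for pairs without it, and results are therefore also given without it. Of the marker lists of other cells, the 3 leukocyte genes summed to 0.0238 to 0.0576 FPKM in RT-MPs and 0 to 0.0029 in Control, with Cd3e listed at 0 throughout. The 3 endothelial genes summed to 0.108 to 0.344 FPKM in RT-MPs and 0.265 to 0.290 in Control. The 4 macrophage genes summed to 39.2 to 40.4 FPKM in RT-MPs and 28.8 to 33.1 in Control, nearly all of it Cd68, with Adgre1 and Csf1r listed at 0. The 3 plasmacytoid dendritic genes summed to 290.4 to 442.0 FPKM in RT-MPs and 381.6 to 389.5 in Control; Siglech was listed at 0, and the sum was mostly Bst2, itself induced by interferon. Tcf4 of that list had 3.90 to 5.25 FPKM in RT-MPs and 6.46 to 6.99 in Control (not called). The 3 fibroblast genes summed to 55.7 to 56.7 FPKM in RT-MPs and 54.1 to 55.5 in Control, with Col1a1 at most 0.0237 FPKM. Of these Dcn had 42.3 to 45.8 FPKM in RT-MPs and 38.2 to 38.9 in Control, and Pdgfra 9.98 to 14.04 in RT-MPs and 15.4 to 16.6 in Control, neither called. Cd68, a lysosomal protein of macrophages and other cells, was called higher in RT-MPs (38.9 to 40.0 FPKM, against 28.04 to 32.80 in Control); the part of these markers in the results was not tested. Of epithelial markers, Krt8 had 142.7 to 159.7 FPKM in RT-MPs and 163.8 to 174.3 in Control, while Epcam was listed at 0 in every library and Cdh1 was at most 0.034 FPKM.

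Promoters of 3 of the 4 Ifit genes carry the letters that the interferon-activated complex is known to recognise, and they are shown because the Ifit transcripts moved together. RefSeq promoters (250 bases before to 50 after the start, build GRCm38.p6) were found for 8 of the 9 members; Ifit2 has 2 listed starts. The core of the interferon-stimulated response element was searched as 2 copies of GAAA with any 2 bases between them on either strand. It occurred in 5 of the 8 members, against 3.99% of 27025 genes and 3.44% of all 32851 promoters of that length. It occurred 2 or more times in 4 of them, namely Ifit1, Ifit3, Ifit3b and Oas1a, against 0.225% of all promoters. Capitals mark the matches, written 5′ to 3′ on the strand of the gene.
Ifit1, chr19:34640639-34640938, plus strand: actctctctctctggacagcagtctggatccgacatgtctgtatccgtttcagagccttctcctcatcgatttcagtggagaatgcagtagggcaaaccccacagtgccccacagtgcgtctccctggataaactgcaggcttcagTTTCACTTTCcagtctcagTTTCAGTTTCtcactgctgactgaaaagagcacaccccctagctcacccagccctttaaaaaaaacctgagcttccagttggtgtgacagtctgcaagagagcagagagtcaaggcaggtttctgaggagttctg
Ifit3, chr19:34583279-34583578, plus strand: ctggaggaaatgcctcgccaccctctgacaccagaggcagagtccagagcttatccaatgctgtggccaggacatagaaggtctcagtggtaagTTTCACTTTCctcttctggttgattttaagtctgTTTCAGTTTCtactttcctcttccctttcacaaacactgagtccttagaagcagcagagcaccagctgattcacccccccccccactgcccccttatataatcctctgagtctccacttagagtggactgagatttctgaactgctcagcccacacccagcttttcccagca
Ifit3b, chr19:34607707-34608006, plus strand: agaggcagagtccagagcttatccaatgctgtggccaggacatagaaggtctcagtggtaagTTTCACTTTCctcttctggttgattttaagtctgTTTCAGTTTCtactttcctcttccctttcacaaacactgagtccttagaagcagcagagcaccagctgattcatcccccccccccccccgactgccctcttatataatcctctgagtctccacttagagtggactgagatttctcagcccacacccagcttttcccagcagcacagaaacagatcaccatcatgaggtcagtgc
Ifit2, chr19:34550444-34550743, plus strand: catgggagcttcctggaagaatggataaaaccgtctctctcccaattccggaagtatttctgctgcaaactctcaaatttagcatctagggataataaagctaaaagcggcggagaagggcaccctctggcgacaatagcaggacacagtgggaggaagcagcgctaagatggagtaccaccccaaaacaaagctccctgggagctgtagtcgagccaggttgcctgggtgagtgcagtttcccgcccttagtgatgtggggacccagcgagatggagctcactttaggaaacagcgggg
Oas1a, chr5:120907476-120907775, minus strand: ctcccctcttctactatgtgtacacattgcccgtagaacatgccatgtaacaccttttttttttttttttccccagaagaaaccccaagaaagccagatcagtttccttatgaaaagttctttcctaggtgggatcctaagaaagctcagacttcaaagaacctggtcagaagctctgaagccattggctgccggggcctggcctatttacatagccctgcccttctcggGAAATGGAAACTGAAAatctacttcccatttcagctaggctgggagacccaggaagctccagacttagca
Oas3, chr5:120777610-120777909, minus strand: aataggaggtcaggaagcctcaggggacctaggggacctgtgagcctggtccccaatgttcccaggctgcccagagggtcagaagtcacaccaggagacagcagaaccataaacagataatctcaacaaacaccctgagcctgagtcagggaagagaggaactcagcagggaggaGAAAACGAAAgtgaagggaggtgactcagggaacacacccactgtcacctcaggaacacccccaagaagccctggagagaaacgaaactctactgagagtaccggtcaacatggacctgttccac

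In Ifit1 the matches lay 95 to 104 and 76 to 85 bases before the start, and in both the reverse complement reads in the direction of the gene. Ifit3 held the same letters, tttcactttc and tttcagtttc, 147 to 156 and 113 to 122 bases before its start. Ifit3b held them 179 to 188 and 145 to 154 bases before its start. The Ifit3 and Ifit3b windows were identical at 258 of 260 aligned bases. The Oas1a matches overlap each other and form 3 copies of GAAA with 2 bases between neighbours, ending 5 bases before the start. That longer run stood in 0.116% of all promoters. Oas3 had 1 match, 66 to 75 bases before its start, and both listed starts of Ifit2 and the windows of Oasl1 and Oasl2 had none. The palindrome TTCNNNGAA, known from the gamma-activated sequence, occurred once in the Oas1a window and once in the Ifit2 window shown, against 8.30% of all promoters. A stretch of the downstream bases, searched whole, was not found in the gene's GENCODE M21 transcripts for Ifit3b and for listed start 2 of Ifit2. It was found for the other member windows. Matches and calls did not always coincide. Ifit2 and Oasl2 were called lower without a match, and Oas1a and Oas3 had matches and were not called. A link between matches and changes was not tested. These matches describe letters in a 300-base window and do not show binding.

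All 4 Ifit transcripts fell in RT-MPs, by the largest proportions among the 9 members on the deposited scale. Their means in RT-MPs were 36.5% to 51.7% of those in Control. Fold changes below are on the log2(FPKM + 1) scale, which understates the change of low genes, with limma's adjusted p over 11915 genes that averaged at least 1 FPKM; all 9 members passed that filter, and with RT-MPs alone every member also averaged above 1 FPKM.

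Ifit1 (chromosome 19, 34640871 to 34650009, plus strand), whose protein in mice binds capped RNA without ribose methylation, had 7.50, 7.10 and 5.73 FPKM in RT-MPs replicates 1 to 3, against 18.7, 14.8 and 18.7 FPKM in Control. The highest treated library lay well below the lowest untreated one. The means were 6.78 ± 0.929 FPKM in RT-MPs and 17.4 ± 2.25 in Control (SD, n = 3 each). The log2 change was −1.24 (SE 0.12, limma adjusted p = 0.0166), the 8th lowest of 11915.

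Ifit3, which partners Ifit1 in human cells, had 5.87, 5.47 and 3.65 FPKM in RT-MPs and 13.2, 11.9 and 14.3 FPKM in Control. The groups did not overlap, and RT-MPs replicate 3 was the lowest library. Ifit3 averaged 4.99 ± 1.18 FPKM in RT-MPs and 13.1 ± 1.24 in Control. Its change of −1.25 (SE 0.16, limma adjusted p = 0.0264) was the 6th lowest of all. Its close copy Ifit3b was less abundant, at 1.46, 1.23 and 0.767 FPKM in RT-MPs and 3.45, 2.85 and 3.19 FPKM in Control. Its groups were again apart, and its log2 change was −0.96 (SE 0.14, adjusted p = 0.0293). With limma voom on the recovered reads, which needs no added pseudocount of 1 FPKM, the change of Ifit3b was −1.46 and that of Ifit3 −1.40.

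Ifit2, a family member linked to apoptosis as well as to viral restriction, had 5.59, 5.64 and 3.85 FPKM in RT-MPs and 10.5, 8.70 and 9.93 FPKM in Control. Its 3 treated values were all under its untreated ones. The log2 change was −0.84 (SE 0.14, adjusted p = 0.0375), the smallest of the 4. RT-MPs replicate 3 was the lowest library for all 4 Ifit genes and Control replicate 2 the lowest untreated one. Without RT-MPs replicate 3 the 4 changes were −1.14 for Ifit1, −1.08 for Ifit3, −0.82 for Ifit3b and −0.69 for Ifit2, and all were called.

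**Figure D1:**
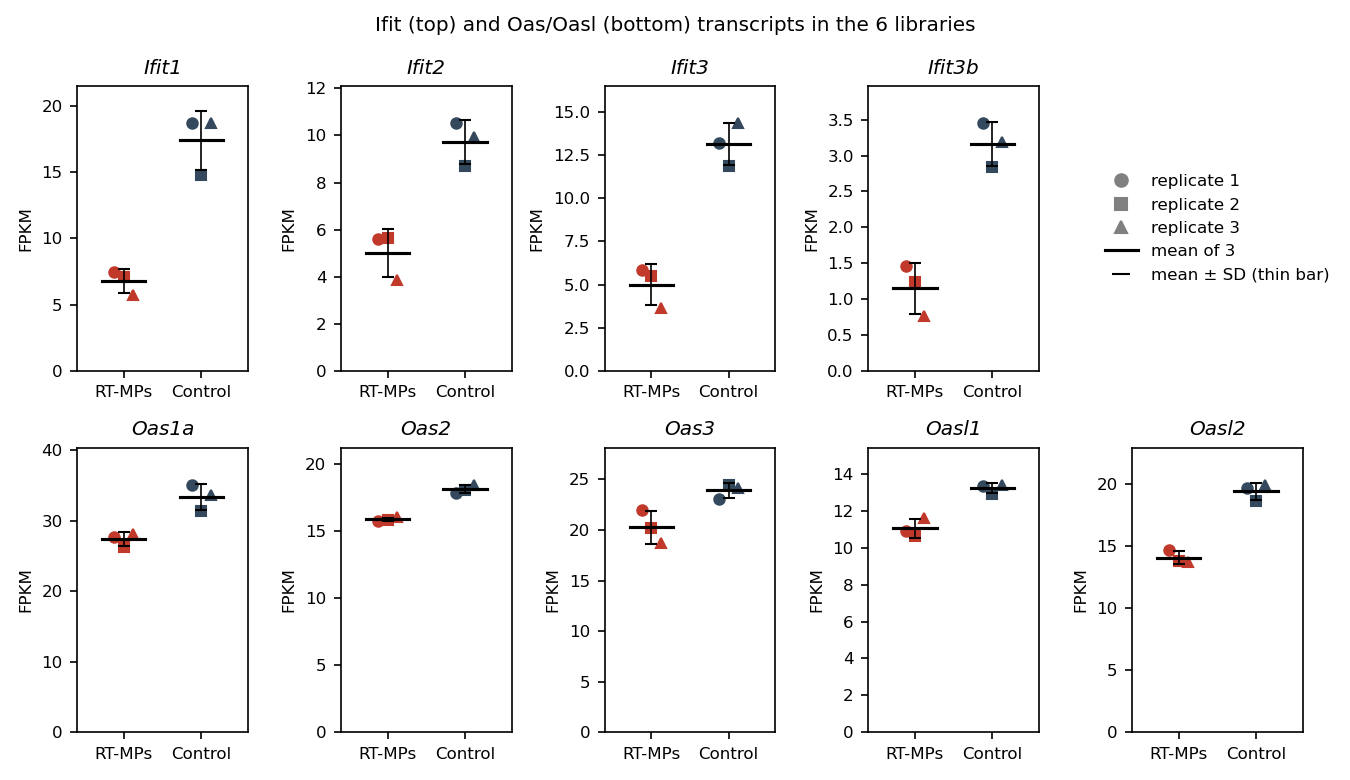
FPKM of the 9 members in each library, RT-MPs (red) left of Control (dark), with replicates as symbols, the mean of 3 as a bar and the SD as whiskers; every axis starts at 0. The Ifit1 points sit between 5.73 and 7.50 in RT-MPs, against 14.8 to 18.7 in Control, while the Oas panels show smaller gaps relative to their levels.

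The Oas and Oasl transcripts were lower in RT-MPs by smaller proportions, at 72.4% to 87.5% of the Control mean, and 1 of the 5 was called. Oasl2 (chromosome 5, 114896936 to 114912234), an oligoadenylate synthetase with ubiquitin-like domains, had 14.7, 13.8 and 13.7 FPKM in RT-MPs and 19.7, 18.7 and 19.95 FPKM in Control. The groups were separated by more than their own ranges. It fell by 0.44 on the log2 scale (SE 0.06, adjusted p = 0.0293). Its relative Oasl1, which in mice has lost enzyme activity and restrains Irf7 translation, had 10.9, 10.6 and 11.6 FPKM in RT-MPs and 13.3, 12.9 and 13.4 FPKM in Control. Its values did not overlap, and its log2 change of −0.24 (SE 0.06, limma adjusted p = 0.0693) did not pass.

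Oas1a, the most abundant member, had 27.7, 26.2 and 28.1 FPKM in RT-MPs and 35.1, 31.4 and 33.6 FPKM in Control. The treated libraries lay below the untreated ones without passing the threshold (log2 change −0.28, SE 0.06, adjusted p = 0.0623). Oas3, the long synthetase that senses long double-stranded RNA, had 22.0, 20.2 and 18.7 FPKM in RT-MPs and 23.1, 24.5 and 24.1 FPKM in Control. Here the closest libraries, RT-MPs replicate 1 and Control replicate 1, were nearly level, and the log2 change was −0.23 (SE 0.07, adjusted p = 0.112). Oas2 had the tightest values, 15.8, 15.8 and 16.1 FPKM in RT-MPs and 17.9, 18.1 and 18.5 FPKM in Control. Its log2 change of −0.18 (SE 0.05, adjusted p = 0.0926) was the smallest of the 9.

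In all, 5 of the 9 members were called lower, none higher and 4 were not called. Over all tested genes 2.70% were called lower, 1.29% higher and 3.99% in either direction. With voom the same 5 members were called lower, where 5.05% of all genes were. The 3 RT-MPs values lay below the 3 Control values in all 9 members, and the same held for 30.4% of all tested genes, with 9.61% separated the other way, so separation alone says little about the members. Ifit1 and Ifit3 were among the 18 genes with a log2 change of −1 or less (0.151%), while the Oas2, Oas3, Oasl1 and Oas1a changes ranked 3696th, 2730th, 2525th and 1930th from the lowest. The members' median was −0.44, beside −0.09 for all tested genes, and 66.9% of all tested genes had a change below 0.

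The calls depended on which library entered. Without RT-MPs replicate 3, 8 of 9 members were called lower, with Oas3 the exception (adjusted p = 0.0529), where 15.1% of all genes were called lower. Without RT-MPs replicate 1 only Ifit1 and Ifit3 were called, where 74 of all 11915 genes were. Both lay at the threshold (smallest limma adjusted p = 0.049996), with Ifit3b just above it at 0.0502. Without RT-MPs replicate 2 or Control replicate 1, 2 or 3 no member was called, and in turn 10, 0, 2 and 0 of all genes were. In those 4 fits, in the same order, limma gave 9, 9, 8 and 7 members an unadjusted p under 0.05, beside 3321, 1935, 2265 and 1839 of the 11915 genes. The sizes moved less: over the 6 fits with a library left out, the Ifit1 change lay between −1.35 and −1.14, and that of Oasl2 between −0.47 and −0.42.

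**Figure D2:**
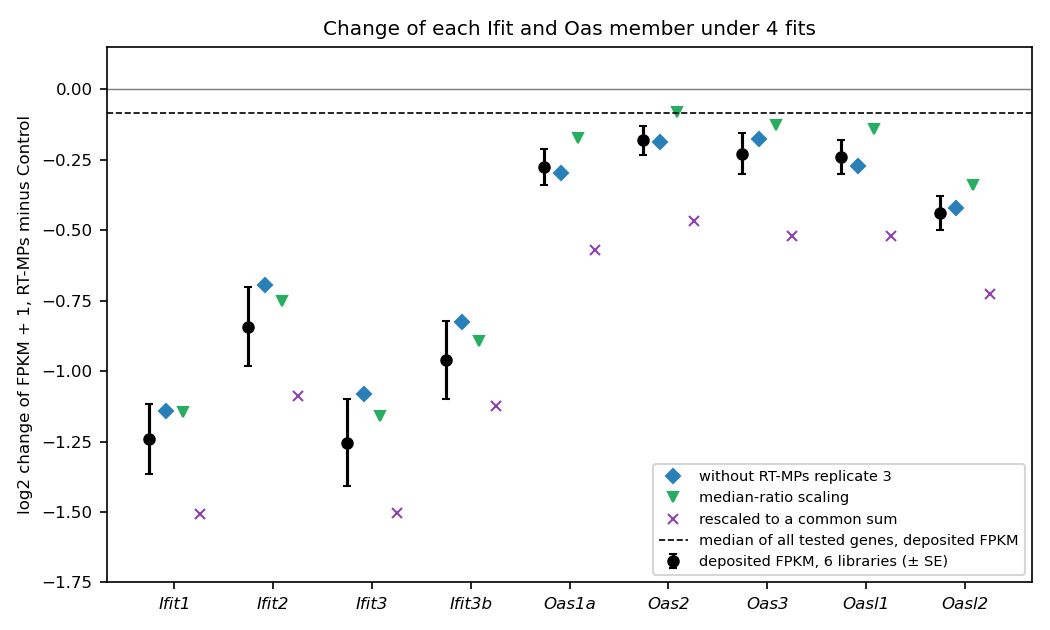
Log2 change of FPKM + 1, RT-MPs minus Control, for each member under 4 fits, with the SE of the fit on all 6 libraries as whiskers; lines mark 0 and the median of all tested genes (−0.09). The 4 Ifit genes lie at −0.69 or lower in every fit shown; the Oas and Oasl genes lie between −0.08 and −0.73, with the rescaling to a common sum lowest for each gene.

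Scaling shifted the changes of all genes together. Rescaling each library to a common sum shifted the median of all genes to −0.34, where Ifit1, Ifit3 and Ifit3b were called and no Oas member was (adjusted p = 0.58 for each of the 5). Median-ratio scaling put the median of all genes at 0.00, the Ifit1 change at −1.15 and the Oas2 change at −0.08. In the fit shown and each of the 17 alternatives, every tested member had a negative change and lay below the median of all tested genes, by at least 0.07 for the member nearest to it.

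Within each library, where scaling cancels, the balance between the 2 families differed between groups. The 4 Ifit genes summed to 20.4, 19.4 and 13.99 FPKM in RT-MPs and 45.9, 38.2 and 46.2 FPKM in Control. The 5 Oas and Oasl genes summed to 91.1, 86.7 and 88.2 FPKM in RT-MPs and 109.1, 105.5 and 109.6 FPKM in Control. Ifit transcripts thus made up 18.3%, 18.3% and 13.7% of the 9-gene sum in RT-MPs, against 29.6%, 26.6% and 29.6% in Control, with no overlap. The ratio of Ifit1 to Oas1a was 0.271, 0.271 and 0.204 in RT-MPs and 0.533, 0.471 and 0.557 in Control. No p is given for these, since the members were chosen with results known.

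The Ifit genes did not all keep their proportions. Ifit1 over Ifit2 was 1.34, 1.26 and 1.49 in RT-MPs, against 1.78, 1.70 and 1.88 in Control, so that Ifit1 lost more than Ifit2 in each treated library. Ifit1 over Ifit3 overlapped between groups, at 1.28, 1.30 and 1.57 in RT-MPs and 1.42, 1.25 and 1.30 in Control. Ifit3 over Ifit3b overlapped too, at 4.01, 4.43 and 4.76 in RT-MPs and 3.82, 4.17 and 4.501 in Control. A ratio shows unequal change and not that either gene was constant.

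**Figure D3:**
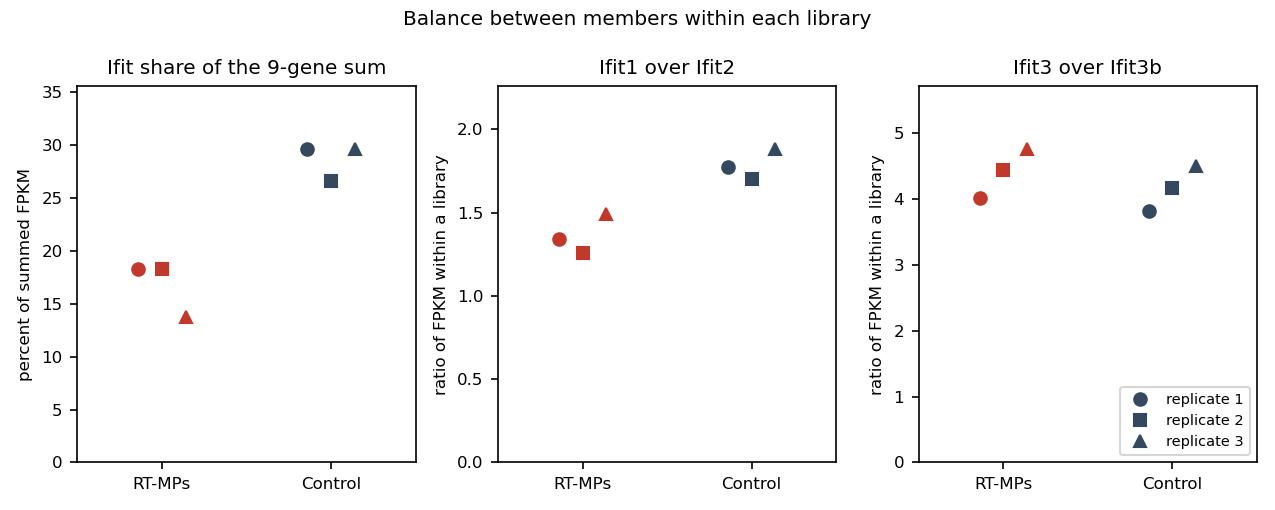
Values computed within each library, RT-MPs left of Control and replicates as symbols: the Ifit percent of the summed FPKM of 9 members, Ifit1 over Ifit2 and Ifit3 over Ifit3b, on axes from 0. The Ifit share is 13.7% to 18.3% in RT-MPs and 26.6% to 29.6% in Control; Ifit3 over Ifit3b overlaps between the groups.

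The order of levels differed between the groups. In RT-MPs, from high to low FPKM, it was Oas1a, Oas3, Oas2, Oasl2, Oasl1, Ifit1, Ifit2, Ifit3 and Ifit3b, and only Ifit2 and Ifit3 overlapped as neighbours (5.02 and 4.99 FPKM on average). In Control the order was Oas1a, Oas3, Oasl2, Oas2, Ifit1, Oasl1, Ifit3, Ifit2 and Ifit3b. There Oas2 with Ifit1 and Oasl1 with Ifit3 overlapped in range. Oas2 stood above Oasl2 in RT-MPs (15.9 beside 14.1 FPKM on average) and below it in Control (18.2 beside 19.4), without overlap in either group. In untreated cells Ifit1 stood above Oasl1 in all 3 libraries (14.8 to 18.7 FPKM beside 12.9 to 13.4), whereas in RT-MPs it stood below (5.73 to 7.50 FPKM beside 10.6 to 11.6).

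The other genes of these families were mostly silent or shared sequence with members. Of 9 such genes 3 were tested and none was called. Without RT-MPs replicate 3 all 3 were called lower, where 15.1% of all tested genes were. Oas1g had 10.4, 10.03 and 11.6 FPKM in RT-MPs and 13.7, 12.9 and 12.6 FPKM in Control (log2 change −0.27, adjusted p = 0.0842). Oas1c had 3.25, 3.01 and 3.16 FPKM in RT-MPs and 4.15, 4.51 and 4.01 FPKM in Control (−0.33, adjusted p = 0.0547). Oas1b, annotated as a polymorphic pseudogene, overlapped between groups at 8.08 to 12.5 FPKM in RT-MPs and 11.5 to 12.8 in Control (−0.25, adjusted p = 0.303), and RT-MPs replicate 3 was its highest treated library. Ifit1bl1 rested on 1 to 2 reads in RT-MPs libraries and 3 to 7 in Control, and Ifit1bl2 on 6 to 21 and 21 to 37. Oas1d and Oas1e had at most 4 reads in any library, and Oas1f and Oas1h were listed at 0 throughout.

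Shared sequence limits 2 pairs. Of the distinct 50-base stretches in GENCODE M21 transcripts of Ifit3, 51.2% also occur in Ifit3b, and 57.6% of those of Oas1a occur in Oas1g, so how reads were divided within each pair is uncertain. For Ifit1, 7.14% were found in other genes, mainly Ifit1bl2, and for Oas2, Oasl1 and Ifit2 none was. 1 of 2 listed Ifit1bl2 promoters overlaps that of Ifit1 on the opposite strand and holds the same pair of matches. The use of strand in counting is not stated: Oasl1 overlaps the antisense gene Gm13822 by 38 bases (at most 0.853 FPKM), and Oas2 contains Gm43068, listed at 0.

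The Ifit genes lie together on chromosome 19 (34550694 to 34650009), the Oas genes on chromosome 5 (120730333 to 120921652) and the Oasl genes also on chromosome 5 (114896936 to 114937915). The nearest protein-coding genes outside, picked by position after the members' values were seen, were mostly silent. Lipa, the lysosomal lipase gene beside Ifit2, had 30.3, 28.4 and 23.0 FPKM in RT-MPs and 38.6, 35.7 and 36.9 FPKM in Control (log2 change −0.44, SE 0.10, adjusted p = 0.0633), and was not called. The uncharacterised 2210016L21Rik beside Oasl1 overlapped between groups (4.86 to 7.73 FPKM in RT-MPs, 5.83 to 6.68 in Control), and Slc16a12, Dtx1, Rph3a and 4930519G04Rik stayed at or under 0.0767 FPKM.

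The enzymes that act with or against the members gave few differences. Abce1, a ribosome recycling factor, had 61.8, 65.4 and 44.0 FPKM in RT-MPs and 69.4, 67.6 and 64.5 in Control (adjusted p = 0.302). Pde12 and Akap7, which degrade the oligomers, had log2 changes of −0.04 (SE 0.08) and −0.06 (SE 0.13). Of the cap methyltransferases, Cmtr2 had 6.04, 5.81 and 4.23 FPKM in RT-MPs and 7.16, 7.27 and 7.33 in Control (−0.39, SE 0.12, adjusted p = 0.105). Rnmt was at −0.04 (SE 0.06), and Cmtr1, at 0.562 to 0.709 FPKM in RT-MPs and 0.587 to 0.728 in Control, was below the filter.

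Transcripts of the interferons themselves were barely detected in either group. Ifnb1 had 1, 0 and 0 reads in RT-MPs and 1, 0 and 2 in Control. Ifna1, Ifna4, Ifna5, Ifnk, Ifnl2, Ifnl3 and Ifng were listed at 0 in all 6 libraries. For Ifna1, 3 reads would have been 0.241 to 0.311 FPKM, so levels well under that could be missed. Ifna2 had 1 read, in Control replicate 3, and Ifne had 5, 3 and 9 reads in RT-MPs and 6, 1 and 0 in Control. Both receptor chains were present: Ifnar1 had 17.2, 16.96 and 14.9 FPKM in RT-MPs and 14.7, 15.1 and 15.2 in Control (log2 change 0.12, SE 0.07), and Ifnar2 had 8.24, 7.89 and 8.49 FPKM in RT-MPs and 7.40, 7.48 and 7.86 in Control (0.10, SE 0.06), neither called.

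Downstream of the receptor, Stat2 was called lower and Tyk2 higher. Stat2 had 12.6, 12.1 and 11.8 FPKM in RT-MPs and 17.4, 16.98 and 17.6 in Control, with a change of −0.48 on the log2 scale (SE 0.06, adjusted p = 0.0231). Tyk2, the kinase bound to Ifnar1, had 17.5, 17.8 and 19.3 FPKM in RT-MPs and 14.6, 14.4 and 14.4 in Control (0.31, SE 0.06, adjusted p = 0.0452). The 2 transcription factors Irf9 and Irf7 were lower without passing, at −0.23 (SE 0.07, adjusted p = 0.111) and −0.27 (SE 0.06, adjusted p = 0.0635). Irf3 and Irf1 overlapped between groups, at 0.10 (SE 0.12) and 0.03 (SE 0.08).

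Among 29 tested effectors outside the Ifit and Oas families, 11 were called lower (37.9%, against 2.70% of all tested genes) and none higher, with a median of −0.42. The GTPase gene Irgm2 fell by 0.88 on the log2(FPKM + 1) scale (adjusted p = 0.0358), to 50.7% of its Control mean in FPKM. Cmpk2, a nucleotide kinase gene neighbouring Rsad2 in the genome, fell by 0.84 on that scale, to 39.2% of its Control mean. Gbp7 fell by 0.79 and Rsad2, which makes a chain-terminating nucleotide, by 0.71. The ubiquitin-like modifier gene Isg15 had 36.5, 32.5 and 43.3 FPKM in RT-MPs and 59.8, 53.5 and 61.7 in Control, a fall of 0.63. Ifi44, Mx2 and Parp9 fell by 0.64, 0.59 and 0.59, and Gbp2, Irgm1 and Rtp4 by 0.42, 0.37 and 0.29. In the other direction and not called, Isg20, an exonuclease gene, had 34.2, 32.1 and 42.5 FPKM in RT-MPs and 27.5, 28.5 and 26.2 in Control (0.38, SE 0.11, adjusted p = 0.0902). Ifi27 had 68.6, 65.1 and 91.7 FPKM in RT-MPs and 53.8, 59.1 and 55.1 in Control (0.40, SE 0.13, adjusted p = 0.116). Neither gene overlapped between groups, and without RT-MPs replicate 3 the list had 21 genes called lower and 2 higher. Of 7 tested RNA sensors, Ifih1 was the 1 called lower, at 1.05, 1.014 and 0.867 FPKM in RT-MPs and 2.19, 1.94 and 1.93 in Control (−0.61, SE 0.09, adjusted p = 0.0293). Its RT-MPs mean was 0.976 FPKM, so it passed the filter of 1 FPKM only through its Control mean of 2.02. Over the 7 lists, 14 of 64 tested genes were called lower and 1 higher. Without RT-MPs replicate 3 these counts were 38 and 5. In that fit 1802 of all 11915 genes were called lower (15.1%) and 746 higher. The listed genes share the libraries with the members and are no independent evidence.

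**Figure D4:**
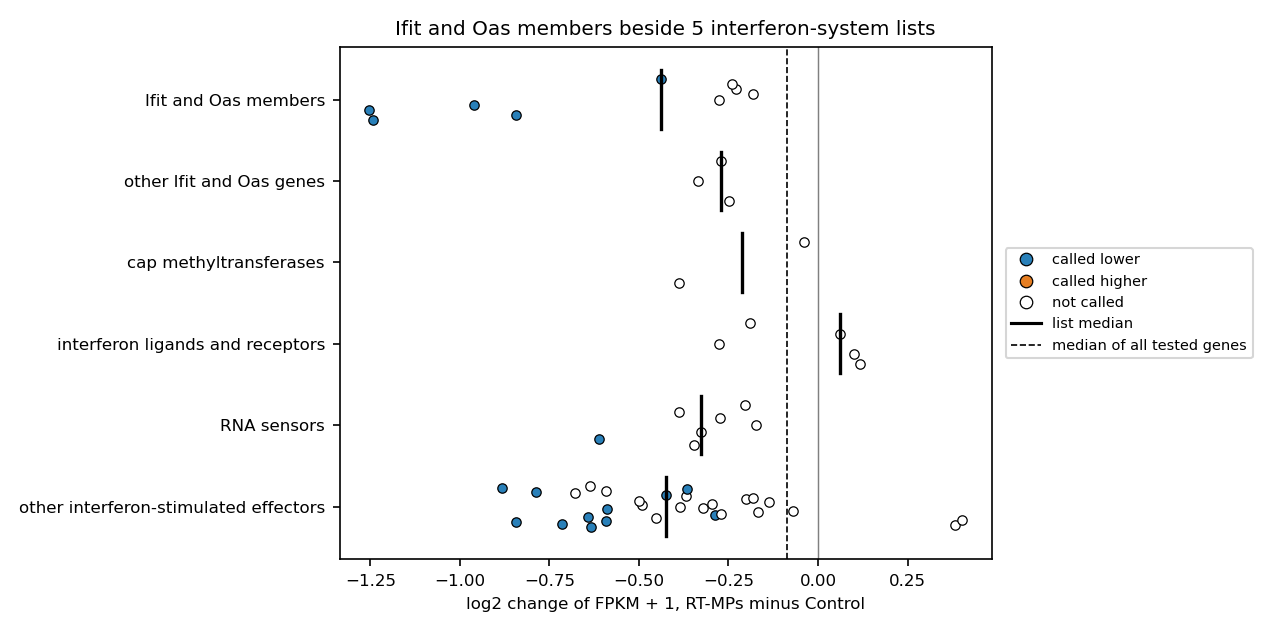
Log2 change of FPKM + 1, RT-MPs minus Control, of each tested gene in the members' row and 5 of the interferon-system lists; filled points passed limma's adjusted p of 0.05, thick bars are list medians and the dashed line is the median of all tested genes. On this scale Ifit3 and Ifit1, at −1.25 and −1.24, lie to the left of every listed gene, the lowest of which is Irgm2 at −0.88. The scale understates low genes: Cmpk2 fell to 39.2% of its Control mean in FPKM, beside 39.0% for Ifit1 and 38.0% for Ifit3.

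The genes outside the family whose levels most resembled the mean standardised profile of the 9 members over the 6 libraries were Heatr3, Shc1, Cd38, Apcdd1 and Recql4 (Pearson r 0.998 to 1.00). Such values mainly reflect the 2 groups and are given as a description over 6 points. Heatr3 had 6.06, 5.69 and 5.30 FPKM in RT-MPs and 9.60, 8.92 and 9.91 in Control. Cd38, an NAD-consuming surface enzyme, had 5.51, 4.88 and 4.19 FPKM in RT-MPs and 11.3, 10.4 and 12.0 in Control, a log2 change of −1.07 (adjusted p = 0.0133). Apcdd1, an inhibitor of Wnt signalling, had 19.1, 17.5 and 16.6 FPKM in RT-MPs and 34.8, 33.3 and 35.6 in Control. Recql4, a DNA helicase gene, fell by 0.60, and the adaptor gene Shc1, at −0.22, was not called.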

How the data were processed

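RNA from stem-like Lewis cells was sequenced from strand-marking mRNA libraries, per the labels' protocols. HISAT2 and mm10 are named in the submitters' processing notes; which counter, gene models and strand setting were used is not stated. The authors deposited FPKM per gene, 54446 genes in each of 6 libraries.

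Groups came from the sample titles. Positions and exon lengths came from GENCODE M21 (mm10), matching 54409 identifiers. FPKM times length times a fitted total gave whole reads, within 0.1, for 99.0% to 99.1% of low values. Log2(FPKM + 1) was tested with limma 3.58.1 in R 4.3.3 (two-sided, with an intensity trend). Adjusted p-values follow Benjamini and Hochberg over the 11915 genes averaging at least 1 FPKM, with a threshold of 0.05. On simulated reads the fit recovered 93% of 1.5-fold and 99% of 0.5-fold changes, and called 15 unchanged genes among 11804. No simulated library stood apart as RT-MPs replicate 3 did, so these rates do not carry over to these data. An exact permutation test of 3 against 3 cannot go under 0.1 and was not used. Alternatives changed the pseudocount, filter, scaling, weights, tool or libraries. Genes named were all members, all other family, oligomer-turnover and cap genes, called genes of the remaining lists, 9 ligand, receptor and signalling genes and the 5 most alike; some of these are not reported here. Members and lists were chosen with earlier results of these data known.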

Additional observations from a re-analysis of the deposited data

How the results depend on the processing

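All 152 member values under 17 alternatives kept a negative direction; 110 kept their side of the threshold, 35 no longer passed and 7 newly passed. On the deposited scale 476 genes, 5 members and 14 listed genes (lower) were called. With no filter these counts were 26, 0 and 1, with 9 members at an unadjusted limma p under 0.05. Rescaling to a common sum gave 54, 3 and 1, array weights gave 4576, 9 and 44, and voom gave 800 genes and 22 listed genes. Median-ratio scaling called 9 listed genes; of all genes it called 122 lower and 255 higher, quantile normalization 144 and 183, against 322 and 154 on the deposited scale. The members' median, −0.44 as reported, was −0.36 with a pseudocount of 5, −0.36 with a minimum of 5 FPKM (8 members tested), −0.34 with median-ratio scaling, −0.38 with quantile normalization and −0.73 with rescaling to a common sum. Leaving out 1 library gave 0 to 2548 genes, 0 to 8 members and 0 to 38 listed genes. The lowest counts came without Control replicate 1 or 3, where 1935 and 1839 genes had an unadjusted p under 0.05, and the highest without RT-MPs replicate 3. With the replicate number as a block, 0 genes, 0 members and 0 listed genes were called, with 2620 genes and all 9 members at an unadjusted p under 0.05. Deviations of same-numbered libraries from their group means had correlations of 0.10, −0.08 and −0.03. With few libraries per group and RT-MPs replicate 3 standing apart, these cannot show whether the numbers pair the samples. The causes were not tested. Depth limits genes on few reads, such as Ifit3b among the members.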
